A study of Mus musculus with 4 samples.

Results

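The 4 Hox gene clusters of the mouse were followed through the chromatin domains of blood stem cells taken before and after birth. The clusters were located by approximate intervals in the mm9 genome build, namely HoxA on chromosome 6 from 52.10 to 52.22 Mb, HoxB on chromosome 11 from 96.05 to 96.23 Mb, HoxC on chromosome 15 from 102.75 to 102.87 Mb and HoxD on chromosome 2 from 74.48 to 74.61 Mb. A gene table placed 39 Hox genes in them, 11 in HoxA, 10 in HoxB, 9 in HoxC and 9 in HoxD. Of these, 8 genes are named throughout: Hoxa9, Hoxa10, Hoxb4, Hoxb5, Hoxc4, Hoxc13, Hoxd1 and Hoxd13. The domains examined were topologically associating domains (TADs), stretches of a chromosome whose parts touch each other more than they touch the neighbouring stretches, and a boundary is the point where a TAD starts or ends. TADs that overlapped a cluster or lay next to such a TAD numbered 14 of 2318 in the fetal and 13 of 2310 in the adult list.

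Both lists came from Hi-C, an assay that ligates and sequences DNA pieces lying close together in the nucleus. The fetal group comprised 2 samples of haematopoietic stem cells (HSCs) from fetal liver at embryonic day 14.5, and the adult group 2 samples of marrow HSCs from mice that were 6 to 8 weeks old. All mice were of the strain B6129SF1, and no genetic change or treatment is named for either group. Cells of both groups were sorted as Lin-, Sca1+, cKit+ and CD135-, a gate that also takes in early multipotent progenitors. The labels give neither the number nor the sex of the animals behind a sample. Both samples of a group shared 1 deposited TAD list, so the values that follow carry no error between replicates, and differences between the lists have no replicate check. Sequencing depth is unknown. The lists hold no expression values, so the cell type could not be checked against its markers.

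Hox genes encode transcription factors that bind DNA through a homeodomain and set the identity of body segments along the head-to-tail axis. Their order along the chromosome follows the order in which they are switched on in the embryo, from the head end of a cluster to the tail end, where genes such as Hoxa13 and Hoxd13 lie. In developing limbs, HoxA and HoxD are textbook cases of clusters that lie where regulatory landscapes meet, so that genes at opposite ends of a cluster answer to enhancers on opposite sides. In blood, Hoxa9 and Hoxa10 are active in stem and progenitor cells and are driven too high in many leukaemias. Hoxb4 expands HSCs when forced on, and Hoxb5 has been used to mark long-term HSCs. Hoxc4 is active in blood and lymphoid cells, Hoxc13 is known for hair and nails, Hoxd13 for digits, and Hoxd1 for sensory neurons.

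The clusters are copies of each other, and this shows most plainly in the microRNAs encoded among their Hox genes. In gene order, Mir196b lay between Hoxa9 and Hoxa10, Mir196a-1 between Hoxb13 and Hoxb9, and Mir196a-2 between Hoxc10 and Hoxc9. Mir10a lay within the annotated span of Hoxb3, next to Hoxb4, and Mir10b within the annotated spans of Hoxd3 and Hoxd4. The mature sequences from RefSeq (GRCm38.p6) are shown because they tie the 4 loci together, with the seed, bases 2 to 8, in capitals.
mmu-miR-10a-5p: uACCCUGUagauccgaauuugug
mmu-miR-10b-5p: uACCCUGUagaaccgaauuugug
mmu-miR-196a-5p: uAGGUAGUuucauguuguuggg
mmu-miR-196b-5p: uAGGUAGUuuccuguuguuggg
Both miR-10 forms carried the seed ACCCUGU and differed at 1 of 23 bases, written U12A from miR-10a to miR-10b with positions counted from the 5′ end. The miR-196 forms carried the seed AGGUAGU and differed at 1 of 22 bases, A12C from miR-196a to miR-196b. By the TAD lists, Mir10a, Mir196a-1, Mir196a-2 and Mir615 belonged to clusters that lay whole in 1 TAD (HoxB and HoxC). Mir196b and Mir10b belonged to clusters whose approximate intervals were crossed by a boundary (HoxA and HoxD).

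Hi-C can only join DNA at the sites where the enzyme cut it, here MboI, which cuts at GATC. Because TAD coordinates lay on a grid of 10 kb, a single promoter is far below what the lists can resolve. For 3 members, the 250 bases before the gene's start are shown from RefSeq (GRCm38.p6), with any GATC in capitals, to give a sense of how the cut sites fall. The Hoxa9 stretch is chr6:52227371-52227620 on the minus strand, that of Hoxb4 chr11:96318017-96318266 on the plus strand and that of Hoxd13 chr2:74667975-74668224 on the plus strand. These coordinates belong to a different build from the TAD lists and cannot be set against them.
Hoxa9: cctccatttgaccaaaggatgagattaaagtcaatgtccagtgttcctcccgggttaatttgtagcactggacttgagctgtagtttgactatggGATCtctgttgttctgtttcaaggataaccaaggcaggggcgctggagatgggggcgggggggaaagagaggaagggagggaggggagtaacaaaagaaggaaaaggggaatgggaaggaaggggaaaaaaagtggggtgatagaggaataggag
Hoxb4: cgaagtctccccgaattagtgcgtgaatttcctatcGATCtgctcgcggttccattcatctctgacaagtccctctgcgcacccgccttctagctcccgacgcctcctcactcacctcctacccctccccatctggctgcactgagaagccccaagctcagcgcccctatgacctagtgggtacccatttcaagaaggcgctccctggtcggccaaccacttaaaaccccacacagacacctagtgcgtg
Hoxd13: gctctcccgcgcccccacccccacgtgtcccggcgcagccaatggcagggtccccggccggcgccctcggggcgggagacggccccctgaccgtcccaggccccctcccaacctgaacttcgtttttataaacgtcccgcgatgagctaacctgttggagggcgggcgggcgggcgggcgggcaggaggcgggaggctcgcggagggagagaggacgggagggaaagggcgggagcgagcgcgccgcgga
Hoxa9 and Hoxb4 each had 1 such site and Hoxd13 had 0. Of 7 such stretches matched for 6 members (Hoxa9, Hoxa10 with 2 starts, Hoxb4, Hoxc4, Hoxd1 and Hoxd13), 4 held GATC, and of 24 for 22 Hox genes, 13 did. Over the 32851 promoters of the table kept for this count the share was 41.9%. Promoters of 1 chromosome and those of incomplete length had been left out. GATC reads the same on both strands. Hoxb5 and Hoxc13 were not matched.

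The intervals of HoxA and HoxD were each crossed by a TAD boundary, at the same position in fetal and adult HSCs. In HoxA the boundary lay at 52195000 in both lists. It stood 25 kb from the edge of the cluster interval at the Hoxa13 end and 95 kb from the other edge. In HoxD the boundary lay at 74515000 in both lists, 35 kb from the edge at the Hoxd13 end and 95 kb from the edge at the Hoxd1 end. Both boundaries were thus nearer the tail end of their cluster interval, the end that carries Hoxa13 and Hoxd13. The intervals are approximate, so the boundaries are placed in the intervals and not among single genes.

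Both cluster intervals were split unevenly, with the smaller part at the tail end. The shares are of approximate intervals and not of Hox genes. The HoxD interval reaches past its Hox genes, as described below, so how many of them its smaller part holds was not determined. The TAD on the lower-coordinate side of HoxA, the head side, ran from 51125001 to 52195000, or 1070 kb, and took in 79.2% of the cluster interval. The TAD on the Hoxa13 side ran from 52195001 to 52985000, or 790 kb, and took in 20.8%. Their coordinates were identical in fetal and adult HSCs, which was true of 8.84% of all fetal TADs. At HoxD, the TAD on the Hoxd13 side was 680 kb long in fetal HSCs (73835001 to 74515000) and 660 kb long in adult HSCs (73855001 to 74515000), and it took in 26.9% of the interval. The TAD on the Hoxd1 side was 910 kb long in fetal HSCs (74515001 to 75425000) and 900 kb long in adult HSCs (74515001 to 75415000), and it took in 73.1%. The outer ends of the HoxD pair thus differed by 20 kb and 10 kb between the lists, while the boundary inside the interval did not move. In each cluster, the TAD on the head side was the longer of the pair.

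For a sense of how often a stretch of this size is crossed, all windows of the same width on 10 kb steps that lay wholly inside TADs of both lists were counted. Of 217768 windows of 120 kb, the width of the HoxA interval, 12.0% held a fetal boundary and 3.56% held a boundary at the same position in both lists. For the 130 kb of HoxD the shares were 13.0% and 3.86% of 217682 windows. The windows overlap, so these shares describe the lists and are no test. Among single fetal boundaries, 30.1% had an adult boundary at exactly the same position, as those in the HoxA and HoxD intervals did.

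Which Hox genes fell on which side was not settled, since no gene positions of build mm9 were used here. If the interval edges lie near the ends of the clusters, Hoxd1 belonged to the 910 or 900 kb TAD and Hoxa13 to the 790 kb TAD. Hoxd13 is the first Hox gene at the edge opposite Hoxd1. In GRCm38.p6 the stretches before Hoxd13 and Hoxd1 start at 74667975 and 74762730, closer together than the 130 kb of the interval. The HoxD interval thus reaches past its Hox genes. Hoxd13 may lie near the boundary, which is 35 kb from the edge, and its side was not determined. Nor was it determined whether the boundary lies among the HoxD genes or at their Hoxd13 end. Hoxa9 and Hoxa10 are the Hox genes ranked 8 and 9 of 11 by rising coordinate, and their side of the boundary was not determined. By gene order, the protein-coding neighbours beyond the Hoxa13 end were Evx1 and Hibadh and beyond the head end Skap2 and Snx10. Beyond the Hoxd13 end they were Evx2 and Lnpk, and beyond the Hoxd1 end Mtx2 followed. Evx1 and Evx2 are themselves homeobox genes that sit at the tail ends of HoxA and HoxD.

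**Figure D1:**
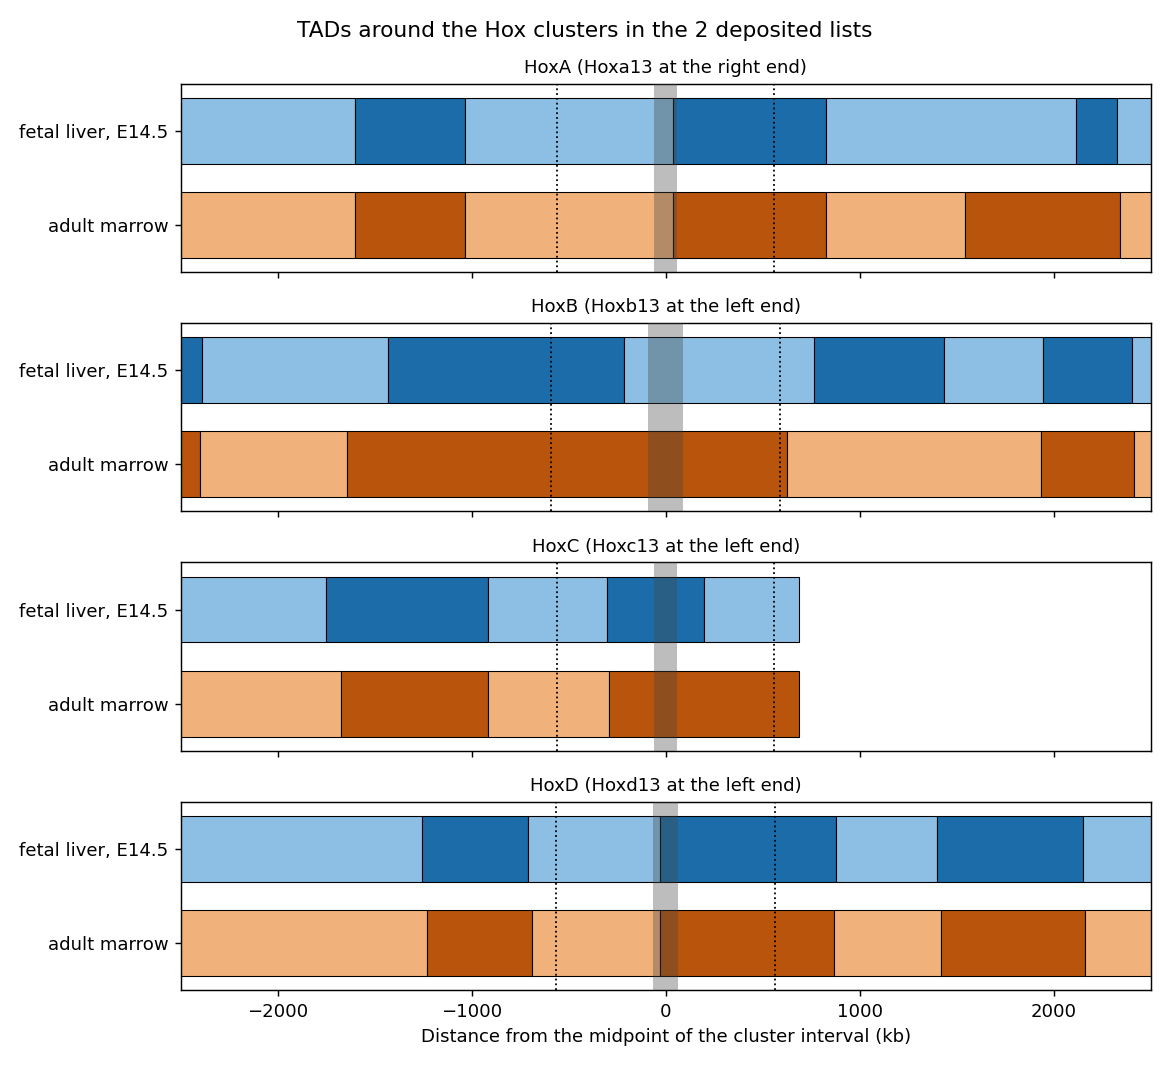
TADs of the fetal liver list (blue, upper row) and the adult marrow list (orange, lower row) around each Hox cluster, by distance in kb from the midpoint of the cluster interval. The grey band is the cluster, dotted lines stand 500 kb beyond its edges, and light and dark shades only separate neighbouring TADs. A boundary crosses the HoxA and HoxD intervals at the same place in both rows. The adult HoxB TAD of 2270 kb lies over more than 1 fetal TAD, and the fetal list divides the adult HoxC TAD.

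HoxB lay whole inside 1 TAD in both lists, so Hoxb4, Hoxb5 and the other 8 HoxB genes shared a domain in fetal and in adult HSCs, but the domain was not the same. In the fetal list it ran from 95925001 to 96905000, or 980 kb. In the adult list it ran from 94495001 to 96765000, or 2270 kb, a length that 94.6% of adult TADs did not exceed. The fetal TAD began 125 kb below the cluster, at the Hoxb13 end, whereas the adult TAD began 1555 kb below it. At the Hoxb1 end the TAD went on for 675 kb in fetal HSCs and for 535 kb in adult HSCs. Of its length, the cluster made up 18.4% in fetal and 7.93% in adult HSCs.

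The fetal boundary at 95925000, on the Hoxb13 side, was the only fetal one within 500 kb of HoxB, and it had no adult counterpart within 40 kb. Its nearest adult boundary was 840 kb away, and 2.51% of all 2393 fetal boundaries were that far or farther from an adult one. By gene order, Ttll6 and Calcoco2 are the protein-coding genes next to Hoxb13, and Skap1 and Snx11 those next to Hoxb1. Within 500 kb of HoxB the adult list held 0 boundaries, which was also true of 18.1% of all windows of 180 kb, the width of the HoxB interval. The adult boundary at 96765000 lay just outside that limit, at 535 kb, and the fetal boundary at 96905000 at 675 kb. These were 140 kb apart.

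The difference around HoxB went well beyond the cluster. The nearest boundaries that both lists placed within 40 kb of each other were at 93745000 and 98085000 (fetal) and at 93735000 and 98075000 (adult). Between them lay 5 fetal TADs, of 960, 1220, 980, 670 and 510 kb, and 3 adult TADs, of 760, 2270 and 1310 kb. None of the 4 inner fetal boundaries and none of the 2 inner adult boundaries had a counterpart within 40 kb. Both lists spanned 4340 kb there. On chromosome 11 as a whole, 61.6% of 99 fetal boundaries and 55.5% of 110 adult boundaries had a counterpart within 40 kb, lower than on the chromosomes of the other 3 clusters (81.0 to 91.6%).

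HoxC also lay whole inside 1 TAD in both lists, so Hoxc4, Hoxc13 and the other 7 HoxC genes shared a domain at both ages. The fetal TAD ran from 102505001 to 103005000, or 500 kb, and the cluster made up 24% of it. The adult TAD ran from 102515001 to 103494974, or 980 kb, and the cluster made up 12.2% of it. At the Hoxc13 end the lists differed by 10 kb, with the boundary 245 kb (fetal) and 235 kb (adult) from the cluster. At the Hoxc4 end the fetal list had a boundary at 103005000, 135 kb from the cluster, and a further TAD of 490 kb beyond it. The adult list had no boundary there, and its TAD went on to 103494974, which is the last coordinate of chromosome 15 in both lists. The fetal boundary at 103005000 was 489.974 kb from the nearest adult boundary, and 5.60% of fetal boundaries were that far or farther. By gene order, Calcoco1 and Atp5g2 lie beyond the Hoxc13 end. Beyond the Hoxc4 end come Smug1, a DNA repair enzyme, and Cbx5, which encodes a protein of heterochromatin. Whether either gene lay below or above the fetal boundary was not determined.

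Counted together, the fetal list held 5 boundaries inside or within 500 kb of a cluster and the adult list 3. Those of the adult list were in the HoxA and HoxD intervals and on the Hoxc13 side of HoxC. Each had a fetal counterpart within 40 kb, 3 of 3 against 83.5% of all adult boundaries. Of the fetal ones, 3 of 5 had an adult counterpart, or 60.0% (95% exact Clopper-Pearson interval 14.7 to 94.7), against 83.4% of all fetal boundaries. The interval covers counting error only. It treats boundaries of the same locus as independent, so it is no test against the whole list. The boundaries without a counterpart were those on the Hoxb13 side of HoxB and on the Hoxc4 side of HoxC. All 5 lay within 245 kb of a cluster, and the next boundary outward was the adult HoxB boundary at 535 kb. A median window of these widths had 1 boundary inside or within 500 kb in either list. HoxC had 2 fetal and 1 adult boundaries, HoxB had 1 and 0, and HoxA and HoxD each had 1 in both.

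Within 1 Mb of the clusters, 9 of 12 fetal boundaries and 9 of 10 adult boundaries had a counterpart within 40 kb. The exact 95% intervals of these shares were 42.8 to 94.5% and 55.5 to 99.7%, beside 83.4% and 83.5% over the whole lists. The intervals treat neighbouring boundaries as independent and are no test. Of the 9 shared pairs, 6 coincided exactly and 3 were 10 or 20 kb apart. Among the 6 was 103494974, the last coordinate of chromosome 15 in both lists. Its match is given by the chromosome end and says nothing about sharing. The unshared ones were 3 fetal boundaries and 1 adult boundary, and all of them were at HoxB or HoxC. Runs of consecutive shared boundaries differed with the list they were read from. Going outward from HoxD, 7 boundaries in a row below the cluster and 9 above it were shared in the fetal list, and 19 on each side in the adult list. With the boundary inside the cluster interval this gave runs of 17 and 39. Of all fetal boundaries 19.1%, and of all adult ones 1.63%, stood in a run at least as long. The adult run of 39 was the longest of its list, and the 1.63% are the boundaries of that run itself. At HoxA, 9 below and 1 above were shared in the fetal list, and 3 below and 1 above in the adult list. Those runs of 11 and 5 were matched or exceeded by the runs of 40.7% of fetal and 67.2% of adult boundaries. At HoxC the fetal run was 2 below and 0 above and the adult run 2 below and 1 above, and at HoxB both were 0 on either side. The 1 above HoxC was the end of chromosome 15.

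**Figure D2:**
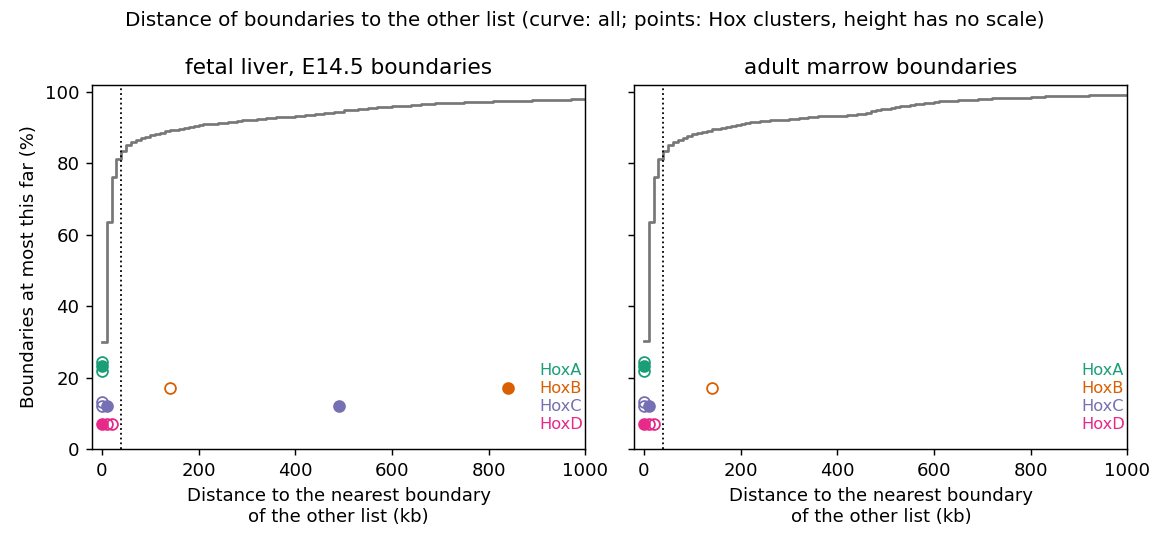
Distance in kb from each boundary to the nearest boundary of the other list, for fetal (left) and adult (right) boundaries. The grey curve gives the share in percent of all boundaries of the list that are at most this far, the dotted line marks 40 kb, and points mark boundaries of the clusters within 500 kb (filled) or between 500 kb and 1 Mb (open), with heights that only separate clusters. All HoxA and HoxD points lie at 20 kb or less, and the fetal HoxB and HoxC points at 840 and 489.974 kb stand apart.

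By reciprocal overlap of at least 80%, 4 of 6 fetal TADs that touched a cluster had an adult counterpart, or 66.7% (exact interval 22.3 to 95.7), against 73.4% of all fetal TADs. The 4 were the pairs at HoxA and HoxD, with overlaps of 97.1% or more. The fetal HoxB TAD reached 37% with the adult HoxB TAD, and the fetal HoxC TAD reached 50% with the adult HoxC TAD. The interval treats TADs that share a boundary as independent, so it is no test against the whole list.

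The TADs that hold Hox clusters were of ordinary length apart from the adult HoxB TAD. The 6 fetal ones were 500 to 1070 kb long with a median of 850 kb, and the 6 adult ones 660 to 2270 kb with a median of 940 kb. The medians over whole lists were 790 kb (fetal) and 760 kb (adult). Of the 6 fetal TADs 3 exceeded their list's median, and of the 6 adult ones 5 did. A long TAD covers more of the genome and so overlaps a set interval more readily, while the medians and percentiles weigh every TAD equally. The counts are therefore no test of length. The shortest was the fetal HoxC TAD, which 21.8% of fetal TADs did not exceed in length, and its adult counterpart stood at 65.2%. The fetal HoxB TAD stood at 63.1% and the adult one at 94.6%. The TADs at HoxA and HoxD stood between 41.8% and 70.9% in both lists. TADs at HoxA and HoxD differed in length by 0 to 20 kb between the lists.

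**Figure D3:**
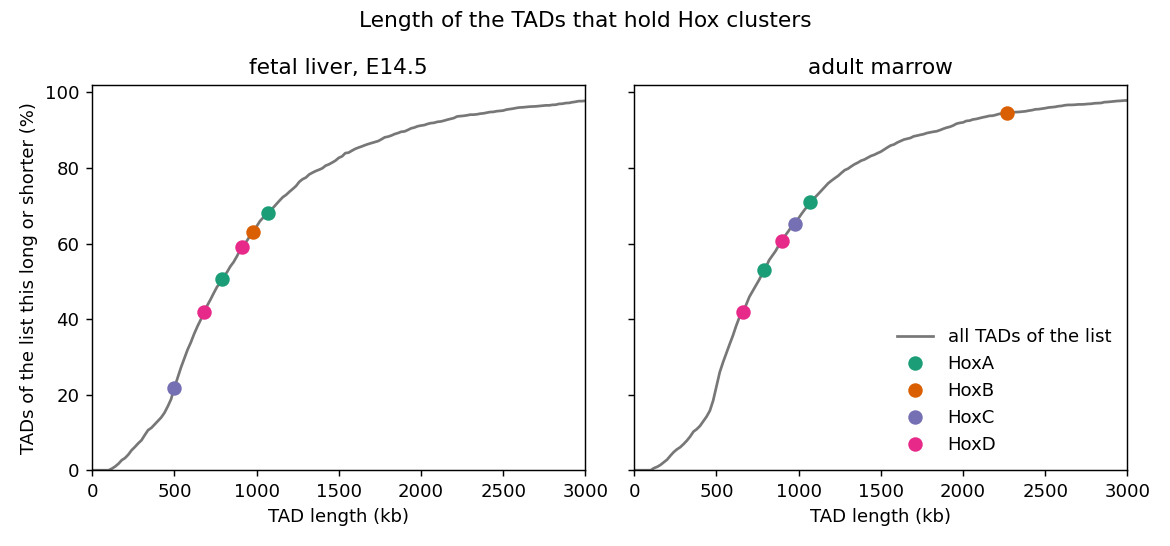
TAD length in kb against the share in percent of TADs of the list that are this long or shorter, for the fetal (left) and adult (right) list, with all TADs as a grey curve and those touching a Hox cluster as points. Fetal points lie between 500 and 1070 kb, and in the adult list the HoxB point lies apart at 2270 kb.

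The TADs next in line were compared last. Below HoxA, beyond its head end, a TAD of 570 kb (50555001 to 51125000) had the same coordinates in both lists. Above HoxA, the fetal TAD from 52985001 was 1290 kb long and the adult one 720 kb, so the lists parted there at 1485 kb (adult) and 2055 kb (fetal) from the cluster. At HoxD, the fetal neighbours were 550 kb (below) and 520 kb (above) long, and the adult ones 540 kb and 550 kb. The neighbour below HoxC, beyond the Hoxc13 end, was 610 kb long in fetal HSCs and 620 kb long in adult HSCs. Around HoxB, the fetal neighbours were 1220 kb below and 670 kb above, against adult neighbours of 760 kb and 1310 kb.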

How the data were processed

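Per the labels, 4 Hi-C samples, 2 per group, were described by 2 TAD lists, 1 per group. The deposited files state each TAD by its chromosome and its first and last base-pair coordinate, which are neither counts nor a signal and carry no score. Per the submitters' processing notes, the build was mm9 and HiC-Pro and GSNAP were used. Not given in the sources used here are their roles and versions, the TAD caller, its settings and any pooling, and each could move a boundary. Boundary positions fell on steps of 10 kb starting at 5 kb, apart from 10 per list.

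Cluster intervals were taken as given, rounded to 10 kb. The members and lists were chosen with earlier results of these data known. The named items were all 4 clusters, the 8 member genes and every boundary inside or within 500 kb of a cluster. Starts are printed 1-based. A boundary was a distinct start or end, and it was shared when the other list held one within 40 kb. Hox genes (39 of 39 matched), their order and neighbours came from a RefSeq gene table of GRCm38.p6, without its coordinates, and 1 of these genes is not reported here. Depth is unknown. With 1 list per group, no p-value was computed. Python 3.11.15, numpy 2.4.6 and scipy 1.17.1 were used. The functions were tested on simulated data, where 72 of 101 boundaries were made shared and 72 were recovered. Shared boundaries kept their exact position there and the others moved far beyond 40 kb, so offsets near that tolerance were not tried. Alternatives were other tolerances, flanks, interval widths and overlaps.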

Additional observations from a re-analysis of the deposited data

How the results depend on the processing

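Of 30 alternative values for the counts and lengths at the Hox clusters, 26 stayed within 1.5 times the reported value (lengths: unchanged) and 4 moved. All 4 came from a flank of 1 Mb in place of 500 kb, which takes in more boundaries by construction. The fetal list then held 12 boundaries, 9 of them shared, and the adult list 10, with 9 shared. The shared ones include the end of chromosome 15. Some counts within the limit of 1.5 times changed too. At a reciprocal overlap of 50%, 5 of 6 fetal and 6 of 6 adult TADs had a counterpart, in place of 4 in each list. The adult HoxB TAD was then matched, at 53.7%, by the fetal TAD below the cluster. With the same position required, 2 boundaries were shared in each list in place of 3. The boundaries inside the HoxA and HoxD intervals were counted in both lists with the intervals widened by 20 or 50 kb or narrowed by 20 kb. These settings could not drop them, since they stood 25 kb (HoxA) and 35 kb (HoxD) from the nearest edge. The count is thus no check of where the Hox genes end. No paired analysis was possible because each group has 1 list for both its samples, which also bars leaving out a sample. The depth behind each list is unknown, so a boundary that only 1 list holds and a boundary missed at lower depth cannot be told apart. HoxB lies on the chromosome with the lowest boundary sharing of those examined here, and HoxC beside a chromosome end. Their part in the differences was not tested.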
